A study of Mus musculus with 7 samples.

Results

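The genes described here are 10 genes that leukocytes of most kinds express. Ptprc, Cd53, Cd37, Cd52 and Itgb2 encode proteins of the cell surface, Coro1a, Was, Lcp1 and Arhgdib encode regulators of the actin cytoskeleton, and Laptm5 encodes a membrane protein of lysosomes. They were matched by Ensembl identifier to gene symbols and were found as 10 of the 22629 rows of the count table, and all 10 were kept by the filter on low counts, which left 17489 genes. The members were selected with results of the comparison below in view, so their differences between the groups are given as a description, and the number of them past the threshold of a test over all genes is printed beside the share of all genes past it and supports nothing. The mean log2 CPM (CPM is the count scaled to library size, here after TMM adjustment) of the 10 genes in a tumor, called the leukocyte scale here, was set beside the genes of the CD3 complex.

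RNA was sequenced from 7 subcutaneous tumors taken from C57BL/6 mice 2 wk after inoculation of cells of the 1242 line, a mouse PDA line from a genetically engineered mouse with Trp53 R172H and Pdx1-Cre. Mice were bought at 6 wk of age and housed for 2 wk before use. All cells carried SpCas9 and the sgScramble control guide, and 3 tumors (1, 4 and 5) were formed with sgScramble cells and 4 tumors (15, 16, 18 and 2) with sgScramble cells that express icOVA, a cytoplasmic form of ovalbumin. The icOVA cells carried a doxycycline-inducible vector with GFP and were sorted and cloned from a single cell, ovalbumin was induced by doxycycline food from day 0, and the methods state a larger inoculum for ovalbumin-inducible tumors than for subcutaneous tumors in general. The sources do not state for these libraries whether the sgScramble tumors came from a clone, carried the vector or were in mice given doxycycline, so the antigen, the clone, the drug and the inoculum cannot be told apart. Total counts ran from 30904855 to 37510591 per tumor. OVA had 85 to 151 counts in the sgScramble tumors and 3413 to 10750 in the icOVA tumors, which matches the labels. Of 7 epithelial markers, Krt8, Krt18, Krt19 and Cdh1 stood at 8.51 log2 CPM or above in all 7 tumors. The others were lower in some or all tumors. Krt7 ran from 7.35 to 8.09, Muc1 from 5.81 to 8.96 and Epcam from 2.12 to 4.21 log2 CPM.

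CD45, the product of Ptprc, is a receptor tyrosine phosphatase that sets the activity of Src family kinases, and it is the surface protein most often used to count leukocytes. The other genes serve the movement and contacts of these cells. Leukocytes crawl and form synapses by building branched actin with the Arp2/3 complex, which WASP activates, by bundling filaments with L-plastin (Lcp1, which some carcinoma cells also express), and by turning filaments over with coronin-1A (Coro1a), while β2 integrins (Itgb2) attach them to vessels and to other cells. In RNA from a whole tumor, more leukocytes and more RNA per leukocyte cannot be told apart.

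Promoter sequences are shown for 3 members, Cd53 as a surface gene with little spread within groups, Arhgdib as the member whose profile lay closest to the leukocyte scale, and Was as a cytoskeletal gene with a low level. RefSeq windows on GRCm38.p6 were matched for 8 of the 10 members, and the 250 bases before the start are printed 5′ to 3′ on the strand of the gene, at chr3:106790150-106790399 (minus strand) for Cd53, chr6:136941900-136942149 (minus strand) for Arhgdib and chrX:8090492-8090741 (minus strand) for Was. Capitals mark the letters AGGAAG, the core of many ETS-type sites, TGTGGT, the core of RUNX-type sites, and TATAAA, each on either strand.
Cd53: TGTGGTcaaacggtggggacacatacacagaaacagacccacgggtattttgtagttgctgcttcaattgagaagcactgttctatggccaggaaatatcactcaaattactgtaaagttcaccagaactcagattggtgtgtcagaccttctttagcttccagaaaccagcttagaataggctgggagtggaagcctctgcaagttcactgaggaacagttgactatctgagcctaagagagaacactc
Arhgdib: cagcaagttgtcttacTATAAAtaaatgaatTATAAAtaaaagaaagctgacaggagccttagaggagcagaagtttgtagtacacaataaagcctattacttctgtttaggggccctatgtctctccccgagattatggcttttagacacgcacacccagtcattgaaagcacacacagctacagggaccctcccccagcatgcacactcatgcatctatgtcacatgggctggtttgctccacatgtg
Was: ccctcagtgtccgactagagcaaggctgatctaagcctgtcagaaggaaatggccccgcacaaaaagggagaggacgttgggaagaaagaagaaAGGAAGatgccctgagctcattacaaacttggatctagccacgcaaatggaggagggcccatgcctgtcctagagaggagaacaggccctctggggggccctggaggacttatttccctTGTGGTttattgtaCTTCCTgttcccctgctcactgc
The letters searched were chosen after the sequences were read. AGGAAG was present in 4 of the 8 windows (Cd37, Laptm5, Ptprc and Was) and in 29.5% of 32851 windows of the same length from all RefSeq starts. The windows lie before RefSeq starts, which can differ from the GENCODE M21 starts. Those of Cd37, Ptprc and Coro1a lie wholly inside the M21 gene, with starts 276, 403 and 2971 bases from the M21 start. Of the 250 bases, 191 lie inside the M21 gene for Laptm5, 22 for Lcp1 and 7 for Was. TGTGGT was present in 2 of 8 and in 14.0% of all windows, and TATAAA in 3 of 8 and in 12.4%. In Was, the nearest AGGAAG match, on the opposite strand, began 23 bases before the start. A match is a description of letters and not of a bound site.

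The 10 genes were higher in icOVA tumors than in sgScramble tumors by 1.70- to 2.17-fold, as the log2 fold changes ran from 0.76 for Laptm5 to 1.12 for Cd37. Their median log2 fold change was 0.88 (1.84-fold), beside -0.0048 for all 17489 genes tested. Every icOVA tumor lay above every sgScramble tumor for 9 of the 10 genes, an order that 11.3% of all genes tested had, and the exception was Coro1a. By the quasi-likelihood test of edgeR, with Benjamini-Hochberg adjustment over all genes, 7 of the 10 were called higher (adjusted p under 0.05) and none lower, beside 3.36% of all genes called higher and 2.54% called lower. Cd37, Coro1a and Was were not called. These counts follow from how the genes were chosen, and nothing is read from them. Limma-voom also called 7 of 10, beside 2.96% of all genes, and DESeq2 called 10 of 10, beside 8.91%. Without tumor 1 or 5 of the sgScramble group, or tumor 15 of the icOVA group, none of the 10 was called by edgeR, and neither was any other gene as higher, whereas all 10 had an unadjusted p under 0.05 in each of these fits, as 3087, 2936 and 3415 genes had. Without icOVA tumor 2, 1 member, Cd53, was called. The median log2 fold change of the 10 genes in these 4 fits was 0.79, 0.81, 0.81 and 0.92.

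**Figure D1:**
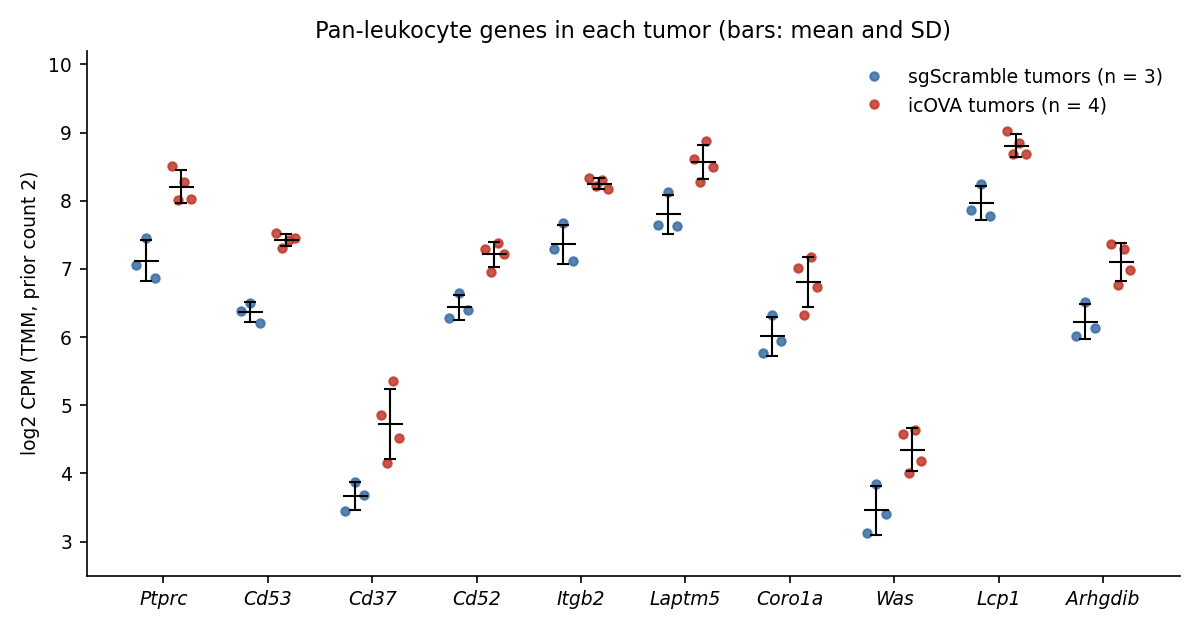
Log2 CPM (TMM scaling, prior count 2) of the 10 pan-leukocyte genes on the vertical axis in each of 3 sgScramble tumors (blue) and 4 icOVA tumors (red), with the mean and SD of each group as black bars. The icOVA points lie above the sgScramble points for every gene but Coro1a, where the highest sgScramble tumor and the lowest icOVA tumor both have 6.33.

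Among the surface genes, Ptprc, on chromosome 1 from 138062861 to 138175708 of GRCm38, stood at 7.05, 7.45 and 6.86 log2 CPM in the sgScramble tumors (1, 4 and 5), against 8.51, 8.01, 8.28 and 8.02 log2 CPM in the icOVA tumors (15, 16, 18 and 2). The groups did not overlap, with tumor 4 the highest of its group and tumors 16 and 2 the lowest of theirs. Ptprc had 141 ± 30.7 CPM (SD, n = 3) in sgScramble and 298 ± 50 CPM (SD, n = 4) in icOVA tumors, and a log2 fold change of 1.08 (SE 0.18).

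Cd53 and Cd37 encode tetraspanins, membrane proteins that gather integrins and signalling receptors into domains. Cd53, on chromosome 3 from 106759921 to 106790149, stood at 6.38, 6.50 and 6.21 log2 CPM in the sgScramble tumors (1, 4 and 5), against 7.52, 7.30, 7.43 and 7.45 log2 CPM in the icOVA tumors (15, 16, 18 and 2). It had the smallest standard error of the 10 genes, with a log2 fold change of 1.06 (SE 0.09), and its groups were separated by 0.79 on the log2 scale, the widest gap of the 10. Cd37, on chromosome 7 from 45233632 to 45239115, stood at 3.45, 3.87 and 3.68 log2 CPM in the sgScramble tumors, against 4.86, 4.15, 5.36 and 4.52 log2 CPM in the icOVA tumors. Cd37 is most abundant in B cells, and it had both the largest log2 fold change of the 10 genes, 1.12, and the largest standard error, 0.28. Among the icOVA tumors, 18 was high and 16 low for Cd37, and 12.7 ± 1.87 CPM (SD, n = 3) stood against 27.6 ± 10.0 CPM (SD, n = 4). Exons of Cd37 share 13 bases with exons of Tead2 on the opposite strand, which had 12334 counts over all tumors, beside 5105 for Cd37, and the strand setting of the counting is not given in the sources used here.

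Cd52, on chromosome 4 from 134082448 to 134095082, encodes a short glycopeptide anchored to the membrane by GPI. It stood at 6.28, 6.64 and 6.40 log2 CPM in the sgScramble tumors (1, 4 and 5), against 7.29, 6.96, 7.38 and 7.22 log2 CPM in the icOVA tumors (15, 16, 18 and 2), and its log2 fold change was 0.78 (SE 0.12). Of its exon bases, 14.5% lie in exons of Crybg2 on the opposite strand, which had 140 counts over all tumors, beside 29299 for Cd52. Itgb2, on chromosome 10 from 77530252 to 77565708, encodes CD18, the β chain of LFA-1 and Mac-1. It stood at 7.29, 7.68 and 7.12 log2 CPM in the sgScramble tumors, against 8.33, 8.21, 8.30 and 8.17 log2 CPM in the icOVA tumors. The 4 icOVA tumors lay close together for Itgb2, at 306 ± 15.4 CPM (SD, n = 4) beside 167 ± 34.0 CPM (SD, n = 3) in sgScramble tumors, and its log2 fold change was 0.88 (SE 0.13).

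Laptm5, on chromosome 4 from 130913125 to 130936141, encodes a lysosomal transmembrane protein that directs antigen receptor chains to degradation. It stood at 7.64, 8.13 and 7.63 log2 CPM in the sgScramble tumors (1, 4 and 5), against 8.61, 8.28, 8.88 and 8.5 log2 CPM in the icOVA tumors (15, 16, 18 and 2). The groups were separated by 0.15 between sgScramble tumor 4 and icOVA tumor 16. Its log2 fold change of 0.76 (SE 0.18) was the smallest of the 10, and it was no longer called with total counts as the library size, with upper quartile scaling or without a filter on low counts.

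Among the cytoskeletal genes, Lcp1, on chromosome 14 from 75131101 to 75230842, stood at 7.87, 8.25 and 7.77 log2 CPM in the sgScramble tumors (1, 4 and 5), against 9.03, 8.68, 8.84 and 8.68 log2 CPM in the icOVA tumors (15, 16, 18 and 2). Its groups did not overlap, and its log2 fold change was 0.83 (SE 0.14). Exons of Gm15628 and Gm15629 on the opposite strand hold 3.27% and 2.3% of its exon bases. Arhgdib, on chromosome 6 from 136923655 to 136941899, stood at 6.02, 6.51 and 6.14 log2 CPM in the sgScramble tumors, against 7.37, 6.77, 7.29 and 6.98 log2 CPM in the icOVA tumors, and its log2 fold change was 0.89 (SE 0.18). The closest tumors for Arhgdib were icOVA tumor 16 and sgScramble tumor 4, with a gap of 0.26. Exons of Pde6h on the opposite strand hold 7.97% of its exon bases, and Pde6h had 15 counts over all tumors, beside 26867 for Arhgdib.

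Coro1a, on chromosome 7 from 126699773 to 126707787, stood at 5.77, 6.33 and 5.94 log2 CPM in the sgScramble tumors (1, 4 and 5), against 7.01, 6.33, 7.17 and 6.74 log2 CPM in the icOVA tumors (15, 16, 18 and 2). Coro1a was the only member whose groups overlapped, as sgScramble tumor 4 and icOVA tumor 16 had the same rounded value. The other 3 icOVA tumors lay above all sgScramble tumors, and its log2 fold change was 0.81 (SE 0.22). Its exons share 26 bases with Bola2 on the opposite strand, which had 3566 counts over all tumors, beside 22462 for Coro1a. Was, on chromosome X from 8081453 to 8090498, stood at 3.12, 3.84 and 3.41 log2 CPM in the sgScramble tumors, against 4.58, 4.0, 4.64 and 4.18 log2 CPM in the icOVA tumors. It was among the genes with the lowest level, at 11.2 ± 2.85 CPM (SD, n = 3) and 20.7 ± 4.35 CPM (SD, n = 4), and its log2 fold change was 0.89 (SE 0.22).

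Levels were compared between the genes as mean CPM per kilobase of exon, counted over all exons of the GENCODE M21 annotation, which sets a long value of 18.3 kb for Ptprc. In sgScramble tumors the highest level was that of Cd52, at 73.3 CPM per kilobase, followed by Laptm5 at 59.6, Itgb2 at 54.6, Cd53 at 47.4, Arhgdib at 44.2, Lcp1 at 26.6, Coro1a at 23.5, Ptprc at 7.70, Was at 4.69 and Cd37 at 3.61 CPM per kilobase. The order was the same in the means of icOVA tumors, from 126 CPM per kilobase for Cd52 to 7.84 for Cd37. Within tumors, Cd52 stood above Laptm5, Arhgdib above Lcp1, Coro1a above Ptprc and Ptprc above Was in 7 of 7, whereas the order of Laptm5 and Itgb2 held in 5 of 7 tumors and each of the other neighbours kept its order in 6 of 7.

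The 10 genes moved together over the tumors. Among sgScramble tumors, tumor 4 was the highest for 10 of 10 genes, while tumors 1 and 5 were each the lowest for 5. Among icOVA tumors, tumor 16 was the lowest for 9 of 10, the exception being Itgb2, which was lowest in tumor 2, and the highest was tumor 15 for 5 genes and tumor 18 for 5. Each gene was then set against the mean of the other 9 in the same tumor. The difference between groups in this relative level ran from -0.15 for Cd52 and Laptm5 to 0.20 for Ptprc on the log2 scale, and the groups overlapped for all 10. Cd37 varied most among the icOVA tumors in this relative level, from -3.02 in tumor 16 to -2.22 in tumor 18, with an SD of 0.339. Arhgdib followed the mean of the 10 most closely, with a root mean square difference of 0.0554 between their centred log2 CPM values over the 7 tumors, and Cd37 least, with 0.222. The mean of the 10 includes the gene itself, which lowers these values, so they are not comparable with those of genes outside the 10.

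**Figure D2:**
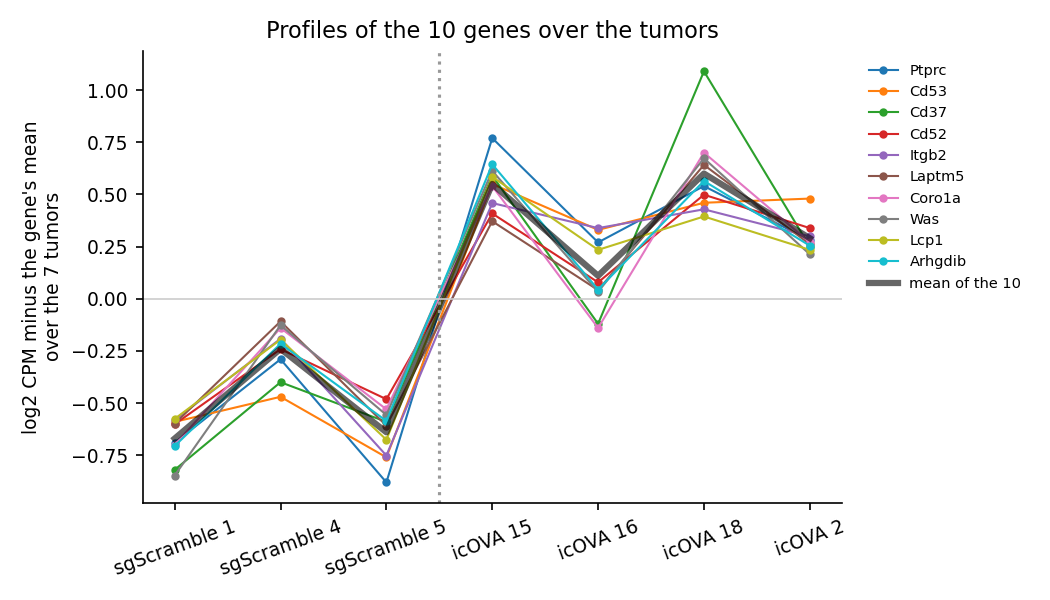
Log2 CPM minus the gene's own mean over the 7 tumors on the vertical axis, for each of the 10 genes (thin lines) and their mean (thick grey line), with the tumors on the horizontal axis and a dotted line between the groups; lines join the points of 1 gene and imply no order of tumors. All genes peak at tumor 4 among sgScramble tumors, and 9 of 10 are lowest at tumor 16 among icOVA tumors.

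Outside the 10, the 8 genes whose centred log2 CPM over the 7 tumors lay closest to the leukocyte scale, among 14118 genes with a mean count of at least 50, were Il10ra (root mean square difference 0.0518), Smpdl3a (0.0557), Bend4 (0.0581), Ptpro (0.0609), Fyb (0.0644), Cd200r4 (0.0654), 9530082P21Rik (0.0656) and Slc7a8 (0.0732). Il10ra, the ligand-binding chain of the IL-10 receptor, stood at 5.57, 6.07 and 5.58 log2 CPM in the sgScramble tumors (1, 4 and 5), against 6.72, 6.31, 6.81 and 6.42 log2 CPM in the icOVA tumors (15, 16, 18 and 2). Likeness was measured on the tumors that show the difference, so genes with a like difference between the groups rank high by construction.

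The leukocyte scale was 6.09, 6.52 and 6.12 in the sgScramble tumors (1, 4 and 5), against 7.31, 6.87, 7.36 and 7.05 in the icOVA tumors (15, 16, 18 and 2). Its mean was 6.24 ± 0.243 (SD, n = 3) and 7.15 ± 0.229 (SD, n = 4), a difference of 0.90 on the log2 scale (1.87-fold). The lowest icOVA tumor lay above the highest sgScramble tumor. As a share of all counts, the 10 genes took 0.102%, 0.136% and 0.0997% in the sgScramble tumors (1, 4 and 5), against 0.225%, 0.174%, 0.228% and 0.193% in the icOVA tumors (15, 16, 18 and 2). The 95% Wilson interval, which covers counting error only, was 0.227% to 0.23% in icOVA tumor 18, and the shares had an SD of 0.0203% (n = 3) and 0.026% (n = 4) between tumors of a group.

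The CD3 genes, whose products form the signalling chains of the T cell receptor, rose in icOVA tumors, by log2 fold changes of 1.26 (SE 0.19, adjusted p = 0.0241) for Cd3d, 1.27 (SE 0.21, adjusted p = 0.0271) for Cd3e and 1.13 (SE 0.19, adjusted p = 0.0277) for Cd3g by the quasi-likelihood test of edgeR with Benjamini-Hochberg adjustment. None of the 3 was called without sgScramble tumor 1 or 5 or icOVA tumor 15 or 2. The mean log2 CPM of Cd3d, Cd3e and Cd3g was 3.29, 3.83 and 3.57 in the sgScramble tumors (1, 4 and 5), against 5.11, 4.38, 4.86 and 4.74 in the icOVA tumors (15, 16, 18 and 2), a difference of 1.21 on the log2 scale (2.31-fold). The CD3 mean minus the leukocyte scale was -2.79, -2.69 and -2.55 in the sgScramble tumors, against -2.20, -2.49, -2.49 and -2.31 in the icOVA tumors. The group means were -2.68 ± 0.123 (SD, n = 3) and -2.37 ± 0.142 (SD, n = 4), a difference of 0.30 (1.23-fold), and 4 of 4 icOVA tumors lay above every sgScramble tumor, with tumors 16 and 18 the nearest to them. With any 1 member left out of the scale the difference was 0.29 to 0.32, and with any 1 tumor left out it was 0.25 to 0.37. With Ptprc alone as the scale it was 0.12, and the groups overlapped, from -3.75 to -3.29 in sgScramble and from -3.63 to -3.29 in icOVA tumors. The SD of the difference from Ptprc was 0.24 in sgScramble (n = 3) and 0.142 in icOVA tumors (n = 4).

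**Figure D3:**
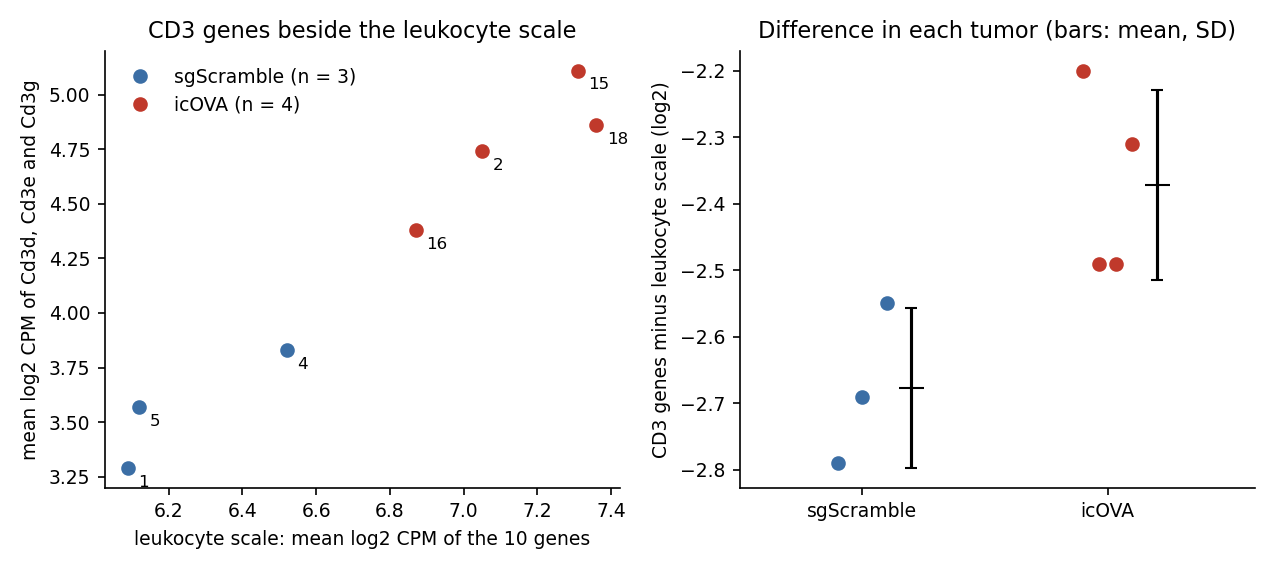
Left, the mean log2 CPM of Cd3d, Cd3e and Cd3g (vertical axis) against the leukocyte scale, the mean log2 CPM of the 10 genes (horizontal axis), with 1 point per tumor labelled by its number. Right, the difference of both values in each tumor (log2), with the mean and SD of each group beside the points, -2.68 for 3 sgScramble tumors (blue) and -2.37 for 4 icOVA tumors (red).

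Relatives of the 10 genes, listed as widely expressed, had log2 fold changes from -0.67 to 0.26, each below the lowest of the 10, with a median of -0.13. How widely each of them is expressed was not tested. Of 16 such genes, all tested, edgeR and limma-voom called none in either direction. Of all 17489 genes tested, edgeR called only 3.36% higher and 2.54% lower, so nothing is read from the absence of calls among 16. By edgeR, 1 higher and 4 lower of the 16 had an unadjusted p under 0.05, as had 4763 of all genes in either direction. DESeq2 called 1 higher and 2 lower, beside 8.91% of all genes called higher. By edgeR, 1 of the 16 was called lower with total counts as the library size, 1 without sgScramble tumor 4, 2 without icOVA tumor 16 and 1 without icOVA tumor 18. Itgb1, the β1 integrin chain, had a log2 fold change of -0.04 (SE 0.10) beside 0.88 for Itgb2. Itgb5 had -0.54 (SE 0.13), with every icOVA tumor below every sgScramble tumor, and was not called. Coro1b and Coro1c had 0.02 (SE 0.06) and 0.26 (SE 0.08) beside 0.81 for Coro1a, and Arhgdia had 0.13 (SE 0.10) beside 0.89 for Arhgdib. The plastins Pls1 and Pls3 had -0.31 (SE 0.19) and -0.24 (SE 0.12) beside 0.83 for Lcp1, and Wasl, which encodes N-WASP, had -0.26 (SE 0.18) beside 0.89 for Was. The lowest value was -0.67 (SE 0.16) for Laptm4b, whose icOVA tumors, at 6.33 to 6.89 log2 CPM, all lay below the sgScramble tumors, at 6.96 to 7.45 log2 CPM. Tumor 18, with the highest leukocyte scale, had the lowest Pls1 of the 7 tumors, at 5.72 log2 CPM. It also had the lowest mean of the epithelial genes, at 7.47 log2 CPM.

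**Figure D4:**
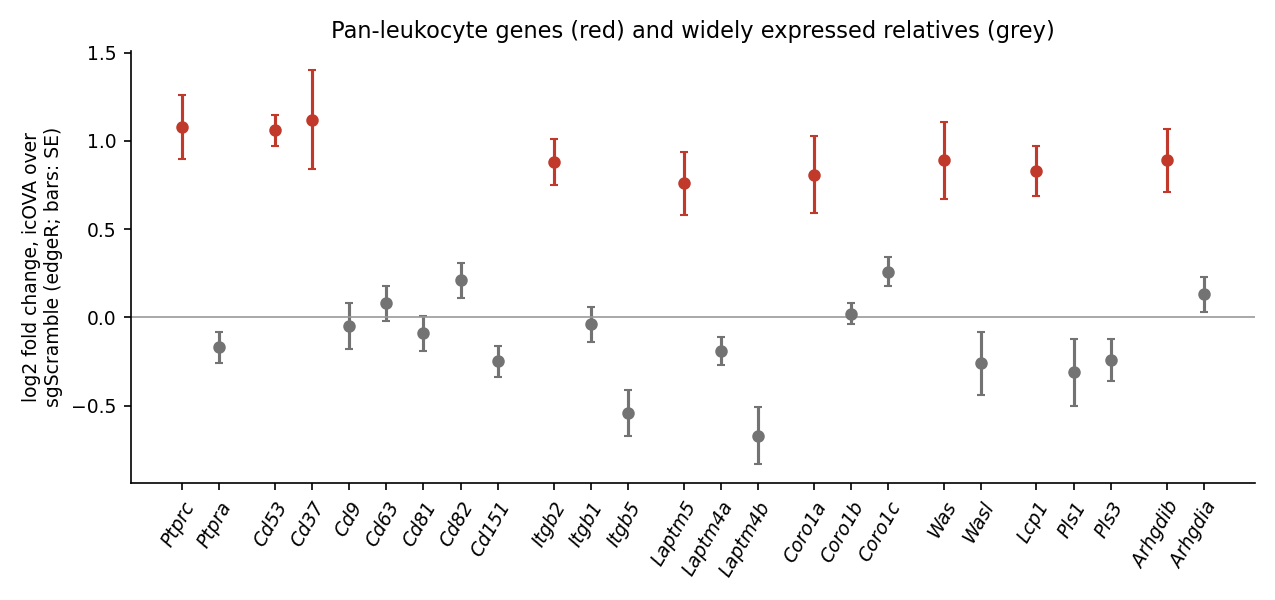
Log2 fold change of icOVA over sgScramble tumors by edgeR (vertical axis, bars are SE), grouped by family along the horizontal axis. Points are 9 of the 10 pan-leukocyte genes (red) and 16 relatives listed as widely expressed (grey). The red points lie from 0.76 to 1.12 and the grey points from -0.67 to 0.26.

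Genes whose products work with β2 integrins and leukocyte actin were described from a list of 15, of which 14 were tested and Itgad was not. By the quasi-likelihood test of edgeR with Benjamini-Hochberg adjustment, 7 were called higher and none lower, beside 3.36% and 2.54% of all genes tested. The median log2 fold change of the 14 was 0.82. The list was drawn up with earlier results of these data known, so nothing is read from the count. Itgam, the α chain of Mac-1, rose by 0.83 (SE 0.14), from 6.55, 7.19 and 6.76 log2 CPM in sgScramble tumors 1, 4 and 5 to 7.69, 7.72, 7.69 and 7.66 log2 CPM in icOVA tumors 15, 16, 18 and 2. Itgal, the α chain of LFA-1, had a log2 fold change of 0.85 (SE 0.20) with an adjusted p of 0.0505 by edgeR and was not called. Itgax, the α chain that marks many dendritic cells and macrophages and pairs with the same β chain, had 0.05 (SE 0.13), with 5.98 to 6.34 log2 CPM in sgScramble and 6.01 to 6.45 log2 CPM in icOVA tumors. The others called higher included Rac2, a GTPase of hematopoietic cells, at 0.99, and the adaptor Fyb and the WASP-binding Pstpip1 at 0.88 each. Also called were the exchange factor Vav1 at 0.86, the cortactin-like Hcls1 at 0.80 and Nckap1l, a subunit of the WAVE complex of blood cells, at 0.76. Dock2 had 0.90 (SE 0.22) and Fermt3 0.69 (SE 0.19), and neither was called. Wipf1, which stabilizes WASP, had 0.48 (SE 0.13), Evl 0.07 (SE 0.11) and Skap2 -0.03 (SE 0.08), and these 3 were not called. Of the 14, none was called without sgScramble tumor 1 or 5 or icOVA tumor 15 or 2. Without icOVA tumor 18, 5 were called, beside 615 of all genes called higher. Without sgScramble tumor 4, 9 were called, beside 862 of all genes, and without icOVA tumor 16, 11 were called, beside 1014.

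Another 17 genes in use across leukocytes, all tested, had a median log2 fold change of 0.87. By the same test 9 were called higher and none lower, beside 3.36% and 2.54% of all genes tested. Ikzf1, the lymphoid transcription factor Ikaros, rose by 1.15 (SE 0.24), Cd48, a GPI-anchored adhesion protein, by 1.03 (SE 0.19), and Spn, the sialomucin CD43, by 0.93 (SE 0.19). Spi1, which encodes the transcription factor PU.1, had 0.67 (SE 0.18) and was not called. Of the 17, none was called without sgScramble tumor 1 or 5 or icOVA tumor 15 or 2, 5 were called without icOVA tumor 18, and 15 without sgScramble tumor 4 or icOVA tumor 16. Over all genes, 615 were called higher without icOVA tumor 18, 862 without sgScramble tumor 4 and 1014 without icOVA tumor 16. The mean of the 17 stood -1.56 ± 0.0179 (SD, n = 3) from the leukocyte scale in sgScramble tumors and -1.62 ± 0.0704 (SD, n = 4) in icOVA tumors, a difference of -0.06, with 3 of 4 icOVA tumors below every sgScramble tumor. This list was also drawn up with earlier results of these data known.

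The leukocyte scale was then set beside markers of single cell types, in lists also drawn up with earlier results known. Of all 17489 genes tested, edgeR called 3.36% higher, limma-voom 2.96% and DESeq2 8.91%. An unadjusted p under 0.05 by edgeR was found for 4763 of them. All 10 T cell genes, the CD3 genes among them, were called higher by edgeR, with a median log2 fold change of 1.26. Their mean relative to the scale was 0.32 higher in icOVA tumors, with 4 of 4 above every sgScramble tumor. Of 10 monocyte and macrophage genes, edgeR called 4 higher (Ly6c2 by 1.66, Ccr2 by 1.13, Lyz2 by 0.91 and Cd68 by 0.82). The first pair marks inflammatory monocytes, whereas C1qa had 0.29 (SE 0.19) and Adgre1 0.65 (SE 0.27). Of the 10, 9 had an unadjusted p under 0.05 by edgeR, and DESeq2 called 8. The median of this list was 0.63, below that of the 10 genes, and its mean relative to the scale was 0.15 lower in icOVA tumors, with 4 of 4 below every sgScramble tumor. For both lists the counts called were 0 without sgScramble tumor 1 or 5 or icOVA tumor 15 or 2. Of 5 plasma cell genes edgeR called 4 higher, among them Igkc by 3.94 (SE 0.69). Igkc stood at 1.05 to 1.78 log2 CPM in sgScramble and 4.17 to 6.58 log2 CPM in icOVA tumors. Another of the 4, Mzb1, had 0 counts in each sgScramble tumor and 17 to 49 in icOVA tumors. Mzb1 passed the filter on low counts through the icOVA group alone, so nothing is read from its call. The gene not called, Derl3, had -0.80 (SE 0.37), with every icOVA tumor below every sgScramble tumor. Limma-voom called 2 of the 5. Of 7 dendritic cell genes edgeR called 1 higher, Siglech, a marker of plasmacytoid dendritic cells, by 1.81 (SE 0.31). The median log2 fold change of the 7 was 0.87, 5 had an unadjusted p under 0.05 by edgeR, and DESeq2 called 3. Since edgeR called 0 genes higher without sgScramble tumor 1 or 5 or icOVA tumor 15, the plasma cell and dendritic cell calls were lost there as well. None of 6 B cell, 5 natural killer cell, 5 neutrophil and 5 mast cell genes tested was called by edgeR, with medians of 0.79, 0.79, 0.53 and 1.36, while 2, 1, 1 and 0 of them had an unadjusted p under 0.05 and DESeq2 called 2, 1, 0 and 0, and the B cell genes summed to only 7.11 to 17.8 CPM in a tumor.

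Markers of cells other than leukocytes also varied between the tumors. None of 8 fibroblast and 6 endothelial genes was called by edgeR, with median log2 fold changes of 1.01 and 0.86, while 1 and 6 of them had an unadjusted p under 0.05 and DESeq2 called 0 and 4. Summed fibroblast CPM ran from 6720 to 15800 in sgScramble tumors and from 5640 to 36800 in icOVA tumors, and summed endothelial CPM from 168 to 263 and from 209 to 521. Within groups, the tumors with the highest leukocyte scale were also those with the highest fibroblast mean, tumor 4 at 8.64 log2 CPM among sgScramble tumors and tumors 18 and 15 at 9.77 and 9.40 log2 CPM among icOVA tumors. By contrast, icOVA tumor 16 had a fibroblast mean of 7.51 log2 CPM, below that of all 3 sgScramble tumors, and its leukocyte scale of 6.87 was still above the 6.52 of sgScramble tumor 4. The mast cell genes followed the same tumors, with 4.02 log2 CPM in sgScramble tumor 4 beside 0.79 and 1.34 in the other sgScramble tumors. Of 7 epithelial genes none was called by edgeR or DESeq2 and 0 had an unadjusted p under 0.05, with a median of 0.04, and their mean was lowest in icOVA tumor 18, at 7.47 log2 CPM. Skeletal muscle genes, with means from -1.76 to 4.36 log2 CPM, were low in sgScramble tumor 5 and icOVA tumor 2 and did not separate the groups. None of 5 muscle genes, 3 adipocyte genes, 3 genes of lymph node stroma and 1 eosinophil gene was called by edgeR, while 0, 0, 1 and 0 had an unadjusted p under 0.05 and DESeq2 called 0, 0, 1 and 0, with median log2 fold changes of 0.59, -0.24, 0.79 and -0.17. The part of these other cells in the difference of the 10 genes was not tested.

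**Figure D5:**
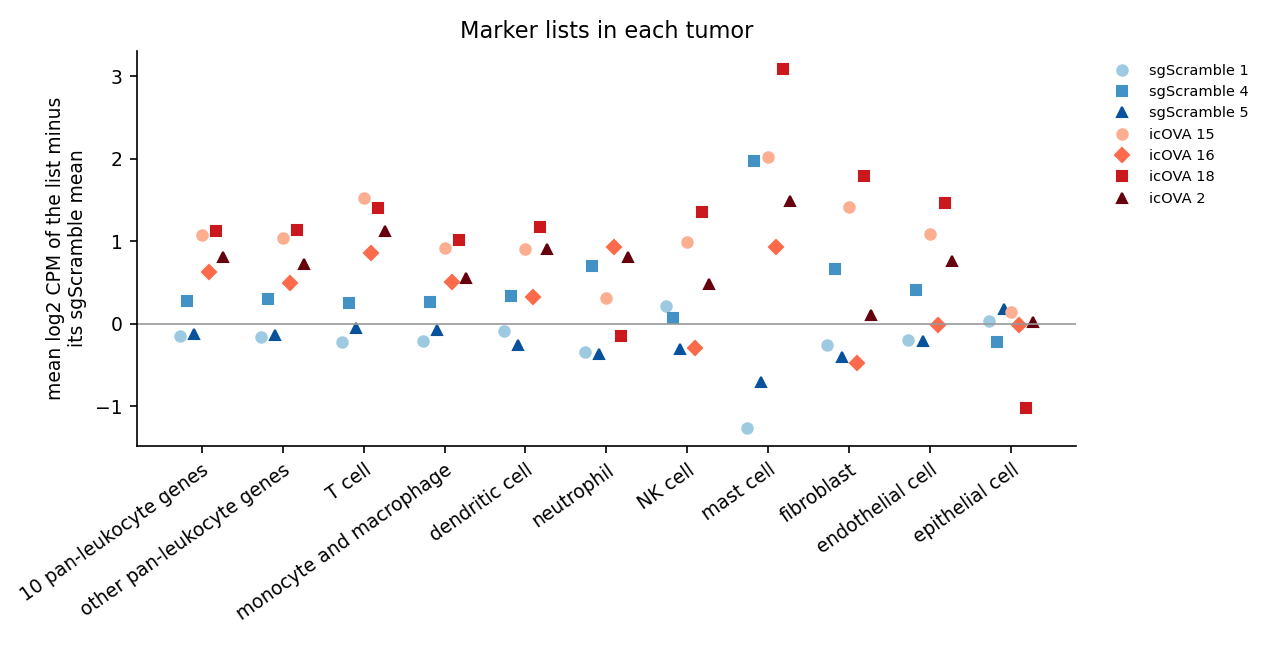
Mean log2 CPM of each marker list minus its mean over the 3 sgScramble tumors (vertical axis), with 1 symbol per tumor (blue, sgScramble; red, icOVA) and the lists along the horizontal axis. The icOVA tumors stand above the sgScramble tumors for the 10 genes, the other pan-leukocyte genes and the T cell and the monocyte and macrophage genes, while fibroblast, mast cell and epithelial lists overlap between the groups.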

How the data were processed

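Libraries of 7 tumors, 3 sgScramble and 4 icOVA, were prepared by the authors with an Illumina TruSeq stranded total RNA kit and sequenced as 76-base single reads, while the labels give the molecule as polyA RNA. The authors deposited raw counts, whole numbers of reads per Ensembl gene, without normalization, and the submitters' processing notes name the build mm10. The aligner, the counting tool and the annotation are not given in the sources used here. Of 22629 rows, 22415 were matched to a symbol in GENCODE M21 (GRCm38, the build of mm10) or were the OVA row, and 152 of the 153 genes listed for this work were found.

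Low-count genes were removed with filterByExpr at a minimum count of 10 and a minimum total of 15, TMM scaled the libraries, and groups were compared without covariates by the quasi-likelihood test of edgeR 4.0.16 in R 4.3.3, with Benjamini-Hochberg adjustment over 17489 genes and 0.05 as the threshold. Log2 CPM has a prior count of 2. The standard error is the log2 fold change divided by the square root of F. The steps were tested on simulated data. DESeq2 1.42.0, limma-voom (limma 3.58.1), other scalings, filters and prior counts, other summaries of the 10 genes, and leaving out each tumor or each member in turn were the alternatives. The labels give the tumors as separate samples and do not say how many mice bore them, so p-values measure the spread between these samples.

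The 10 genes and all lists were chosen with earlier results of these data known. The text names those 10 genes, Cd3d, Cd3e and Cd3g, genes of the lists of relatives, partners, other pan-leukocyte genes and cell type markers, and the 8 other genes closest to the leukocyte scale in root mean square difference of centred log2 CPM (mean count at least 50). OVA is named as the check of the labels, and genes whose exons overlap a member are named beside it. No count column was left unused. Tumors of Krt19-edited cells were not analysed here.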

Additional observations from a re-analysis of the deposited data

How the results depend on the processing

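With all tumors kept, the number of the 10 genes called higher was 6 with total counts, with the upper quartile or without a filter on low counts, 7 with limma-voom, a stricter filter or robust dispersion, and 10 with DESeq2, which called 1558 genes higher in all, beside 588 by edgeR. With 1 tumor left out it ran from 0 to 10: it was 0 without tumor 1 or 5 of the sgScramble group or tumor 15 of the icOVA group, 1 without icOVA tumor 2, when 6 genes were called higher in all, and 7 to 10 without the others. Over all genes, 862 were called higher without sgScramble tumor 4, 1014 without icOVA tumor 16 and 615 without icOVA tumor 18. Each fit without 1 tumor has 1 residual degree of freedom fewer, and the cause of the lost calls was not tested. The direction never changed: of the 70 values of single members in fits without 1 tumor, 36 stayed on their side of the threshold, 28 were no longer called, 6 became called and 0 reversed. The median log2 fold change was 0.79 to 1.05 with 1 tumor left out, and the difference of the leukocyte scale was 0.83 to 1.04 with 1 tumor left out and 0.89 to 0.96 under other scalings, prior counts and summaries. The difference of the CD3 genes relative to the scale was 0.30, and 0.12 with Ptprc alone as the scale (the cause was not tested). With Cd247 added to the CD3 genes it was 0.40. DESeq2 called 11 of the integrin and actin partners, 16 of the other pan-leukocyte genes and 8 of the monocyte and macrophage genes. It called 8.91% of all genes higher. The legend of the paper's heat map describes the sgScramble cells and the icOVA-expressing cells as paired. The labels name no pairs, and no tumor number occurs in both groups, so no paired analysis was made. With counts of 301 or more for each of the 10 genes in each tumor, depth limited these values less than the spread between tumors did.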
